A study of Mus musculus with 2 samples.

Results

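The regions described here are stretches of open chromatin at microRNA (miRNA) genes in the right cerebral cortex of the mouse. Both libraries came from DNase-seq, in which the enzyme DNase I cuts accessible DNA, on right cerebral cortex of female B6CASTF1/J mice aged 18 to 20 months. These mice are first-generation hybrids of C57BL/6J and CAST/EiJ. The libraries are 2 biological replicates of 1 group, with no second condition, and both carry the same donor identifier, and nothing says that they came from separate animals, so their spread may include technical error. Tissue is a mixture of cells, and more cells of a type cannot be told apart from more open chromatin per cell. A member was an autosomal region that held a peak of each library in the shorter of its 2 deposited peak lists and lay within 2000 bp of a gene that GENCODE M21 annotates as a miRNA. There were 512 members among 63270 autosomal regions open in both libraries. Of these, 258 also lay within 500 bp of the start site of a protein-coding gene, and 254 lay away from such sites. The value of a region is that of its strongest peak, a signal deposited by the authors with its normalization not given in the sources used here.

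miRNAs are short RNAs that guide Argonaute proteins to messenger RNAs and lower their translation and stability. A miRNA is cut from a hairpin in a longer primary transcript, which can start at its own promoter, at a long non-coding RNA (lncRNA) gene or at a coding gene that holds the hairpin in an intron. The bases that pair with the target most strictly are the seed, positions 2 to 8 of the mature strand. In cortex, miR-124, miR-9, miR-128, miR-137 and miR-138 are known as neuronal miRNAs, miR-132 and miR-212 as products of a transcript that neuronal activity induces through the factor CREB, and miR-219 and miR-338 as drivers of oligodendrocyte maturation.

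The mature strands below are those of listed brain miRNAs and clusters with an open region, from RefSeq (GRCm38.p6), with the seed in capitals. By symbol, 940 of the 2054 autosomal miRNA genes matched the RefSeq table. Mir124a-1, Mir124a-2 and Mir124a-3 are named only. The first pair shares a seed and comes from 1 transcript.
miR-132-3p: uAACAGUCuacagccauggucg
miR-212-3p: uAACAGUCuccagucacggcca
The other neuronal and oligodendrocyte miRNAs with a region have seeds that differ from each other.
miR-9-5p: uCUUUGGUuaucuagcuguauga
miR-128-3p: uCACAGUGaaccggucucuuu
miR-129-5p: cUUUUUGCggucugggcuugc
miR-137-3p: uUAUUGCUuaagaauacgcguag
miR-138-5p: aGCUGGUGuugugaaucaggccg
miR-7b-5p: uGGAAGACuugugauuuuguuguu
miR-219a-5p: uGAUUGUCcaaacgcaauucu
miR-338-3p: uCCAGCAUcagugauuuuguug
In the list named after the 17-92 cluster and its copies, these 2 pairs share a seed within the pair.
miR-17-5p: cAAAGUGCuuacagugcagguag
miR-20a-5p: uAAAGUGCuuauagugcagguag
miR-92a-3p: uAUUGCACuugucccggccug
miR-92b-3p: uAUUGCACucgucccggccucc
The strands of Mir125b-1, Mir125b-2 and Mir125a share a seed across 3 loci.
miR-125b-5p: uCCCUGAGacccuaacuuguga
miR-125a-5p: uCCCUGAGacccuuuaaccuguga

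The 6 windows below are shown because each holds the full palindrome TGACGTCA, the cAMP response element (CRE) that CREB is known to bind, in an open region at a neuronal miRNA gene. Each is 300 bp around the middle of a region, plus strand of GRCm38.p6 (mm10), with the CRE in capitals. The letters are those of the reference strain, and CAST/EiJ alleles were not read.
Mir212 region, chr11:75173181-75173480: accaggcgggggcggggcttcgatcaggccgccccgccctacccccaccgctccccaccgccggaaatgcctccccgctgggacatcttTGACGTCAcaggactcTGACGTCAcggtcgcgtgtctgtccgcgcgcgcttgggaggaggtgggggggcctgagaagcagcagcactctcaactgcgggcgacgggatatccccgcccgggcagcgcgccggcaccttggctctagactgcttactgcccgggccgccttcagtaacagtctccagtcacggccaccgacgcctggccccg
Mir132 region, chr11:75173561-75173860: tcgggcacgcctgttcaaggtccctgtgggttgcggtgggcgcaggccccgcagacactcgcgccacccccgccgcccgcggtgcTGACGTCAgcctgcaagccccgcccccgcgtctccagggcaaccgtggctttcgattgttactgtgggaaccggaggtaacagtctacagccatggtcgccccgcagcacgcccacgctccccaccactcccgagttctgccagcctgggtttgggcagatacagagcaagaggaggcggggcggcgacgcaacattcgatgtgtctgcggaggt
Mir124a-3 upstream region, chr2:180892901-180893200: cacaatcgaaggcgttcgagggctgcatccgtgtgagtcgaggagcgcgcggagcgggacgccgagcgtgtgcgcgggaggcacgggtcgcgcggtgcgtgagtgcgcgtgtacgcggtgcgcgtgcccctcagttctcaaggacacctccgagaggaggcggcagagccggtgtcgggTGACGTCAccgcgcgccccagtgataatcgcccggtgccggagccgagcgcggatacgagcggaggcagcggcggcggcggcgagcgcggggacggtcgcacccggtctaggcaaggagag
Mir124a-2 region, chr3:17793689-17793988: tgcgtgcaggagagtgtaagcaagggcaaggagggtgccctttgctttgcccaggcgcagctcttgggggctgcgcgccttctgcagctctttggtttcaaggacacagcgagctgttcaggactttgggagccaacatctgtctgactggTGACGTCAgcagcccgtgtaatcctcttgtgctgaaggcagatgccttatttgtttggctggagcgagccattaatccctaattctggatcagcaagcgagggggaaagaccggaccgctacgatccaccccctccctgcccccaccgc
Mir9-3 region, chr7:79504741-79505040: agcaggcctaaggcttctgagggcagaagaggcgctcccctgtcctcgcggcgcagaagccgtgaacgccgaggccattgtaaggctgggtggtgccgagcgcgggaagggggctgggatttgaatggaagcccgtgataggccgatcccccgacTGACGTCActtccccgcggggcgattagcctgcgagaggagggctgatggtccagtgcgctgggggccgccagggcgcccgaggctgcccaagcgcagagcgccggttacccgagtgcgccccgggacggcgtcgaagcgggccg
Mir9-1 region, chr3:88214241-88214540: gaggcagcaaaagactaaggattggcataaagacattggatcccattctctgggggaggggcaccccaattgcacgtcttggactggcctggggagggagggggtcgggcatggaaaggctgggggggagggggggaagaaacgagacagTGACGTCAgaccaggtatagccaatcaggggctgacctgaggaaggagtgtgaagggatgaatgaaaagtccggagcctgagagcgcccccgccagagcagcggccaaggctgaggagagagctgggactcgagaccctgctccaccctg

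A CRE lay in 6 of the 15 windows at neuronal miRNA genes (40.0%). It lay in 1 of the 239 other members away from coding start sites (0.418%) and in 0.595% of the 46727 other shared regions away from such sites. A CRE holds a CpG, so windows away from coding start sites were also split by their number of CpG. With 10 or more CpG, 6 members had a CRE (5.83% of such members), against 1.74% of other regions. With fewer than 10 it was 1 of 151 members (0.662%), against 0.427%. The split pools neuronal and other members, so it does not adjust the contrast between them for CpG. Nor are the 15 windows independent, as 4 lie at Mir124a-3, and 2 of the 6 with a CRE lie at Mir132 and Mir212. The seventh window with a CRE away from coding start sites lay at Gm47305, near a 7SL RNA gene. Over all motif windows of members, 19 CRE matches were found in 17 regions, and 16 of the 19 touched a deposited footprint in both libraries. Of the 17 regions, 10 lay near coding start sites. By the same count inside members, NRF1 (GCGCATGC) gave 24 of 27, MEF2 (TATTTATA) 1 of 4, TTCAGCACC 0 of 1 and GGACAGCGC 0 of 6. Matches in other shared regions were not compared with footprints. A footprint is a short stretch within open chromatin that is cut less than its flanks, as a bound protein leaves it. At Mir212 the first of the paired matches (75173270 to 75173277) touched no footprint, and the second (75173286 to 75173293) touched one in both libraries. The match at Mir132 (75173646 to 75173653) touched none in either library and lay outside the strongest peak of replicate 2. The matches at Mir124a-3, Mir124a-2, Mir9-3 and Mir9-1 each touched a footprint in both libraries. These matches are descriptions of letters, not binding sites.

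**Figure D1:**
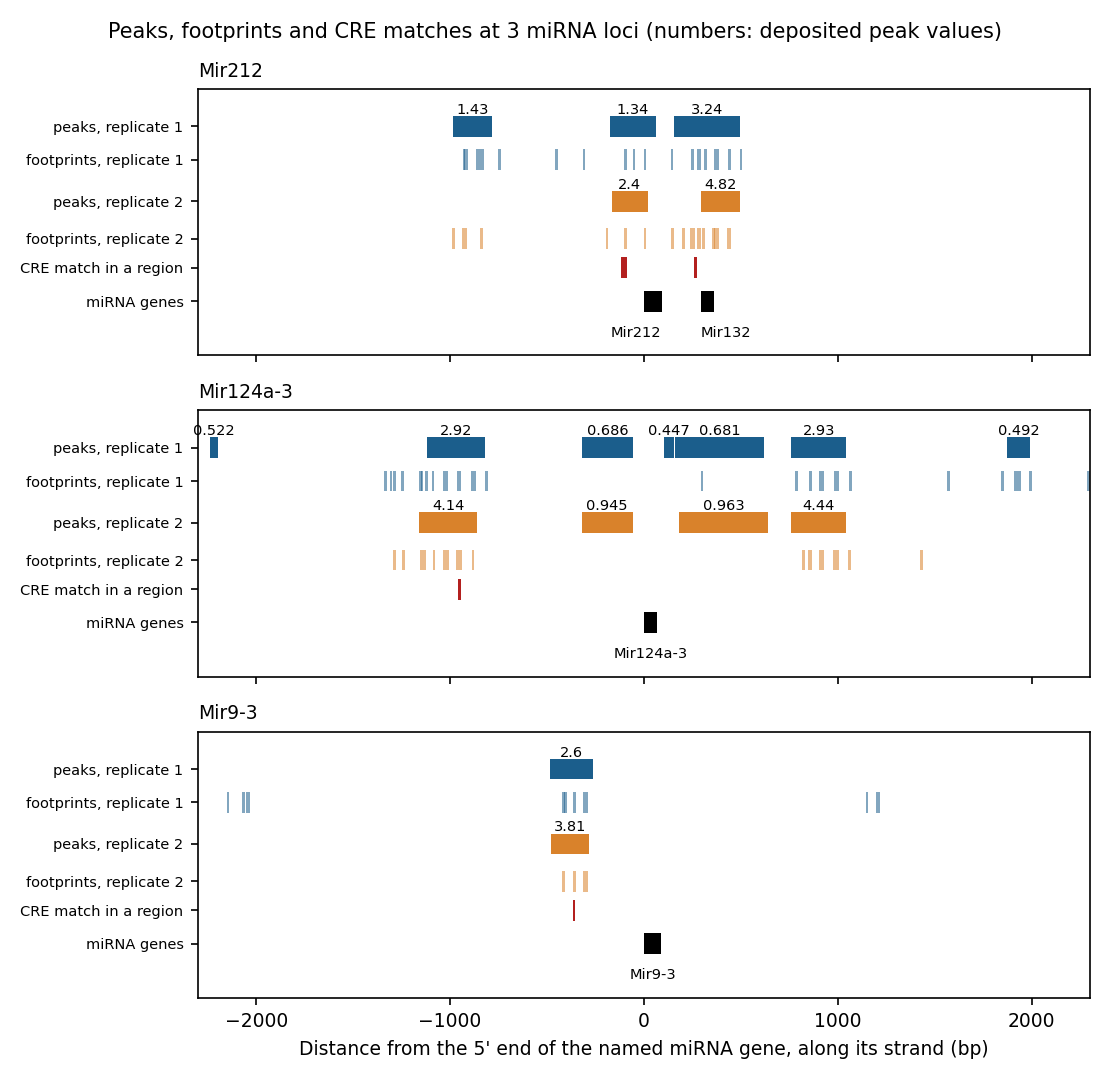
Peaks and footprints of both libraries, CRE matches and miRNA genes within 2300 bp of the 5' end of Mir212, Mir124a-3 and Mir9-3, with the distance in bp along the strand of the gene and the deposited value above each peak. The CRE matches lie upstream of Mir212, between Mir212 and Mir132, and upstream of Mir124a-3 and Mir9-3.

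Of the 24 autosomal genes of 11 neuronal miRNA families, 13 had a member, in 9 families. Among all 2054 autosomal miRNA genes 19.5% had one, and among the 1084 with a Mir symbol 23.2%. None of the 15 regions at these 13 genes lay within 500 bp of a coding start site. Families were set by the number in the gene symbol. Mir129-2 and Mir129b share 1 region, and Mir132 and Mir212 share theirs, so the 13 genes are not independent. The lists were chosen with earlier results of these data known, so these shares are a description.

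The highest value in the neuronal list was that of the region at Mir132 and Mir212. It spans chr11:75173541-75173880, overlaps Mir132 and lies in the lncRNA gene 1700016P03Rik, with 3.24 in replicate 1 and 4.82 in replicate 2. A weaker region over Mir212 (chr11:75173214-75173448) had 1.34 and 2.40. The stronger region had the higher value in each library, and together they touch both miRNA genes of the transcript. The other listed activity-regulated gene, Mir134 of the Dlk1-Dio3 region, had no shared region nearer than 14197 bp.

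Mir124a-3, one of 3 genes of the most abundant brain miRNA, had 4 members. The strongest lay downstream of the hairpin (chr2:180894801-180895080) with 2.93 and 4.44, and the next upstream (chr2:180892881-180893220) with 2.92 and 4.14. The 2 between them, on either side of the hairpin, had 0.686 and 0.681 in replicate 1 and 0.945 and 0.963 in replicate 2. So the strong regions of this locus were the outer ones, 820 bp upstream and 694 bp downstream of the gene, in both libraries. The upstream region held 51 CpG in its 300 bp window and the downstream one 10. Mir124a-2 had 1 region (1.34 and 1.99), 12 bp from the start of its host lncRNA Mir124-2hg. Mir124a-1 had a peak of 1.34 in replicate 1 and none in replicate 2 within 2000 bp, and its nearest shared region lay 2657 bp away.

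All 3 genes of miR-9, which restrains the proliferation of neural progenitors, had a member. At Mir9-3 the values were 2.60 and 3.81, at Mir9-2 2.26 and 3.39, and at Mir9-1 1.29 and 1.80. Mir9-3 and Mir9-2 were above Mir9-1 in each library. Their regions differed in position and base content. That of Mir9-1 covered a start of the host lncRNA Gm3764. That of Mir9-3 lay 264 bp upstream of the hairpin and 4660 bp from a start of Mir9-3hg. That of Mir9-2 lay 966 bp downstream of the hairpin in C130071C03Rik, with 46.0% GC and 4 CpG against 70.0% and 33 at Mir9-3.

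The other neuronal genes had values below those of Mir9-2 in both libraries. Mir129-2 and its antisense copy Mir129b share 1 region (1.80 and 1.53), 1278 bp from a start of the lncRNA Mir670hg. Mir7b, whose product pairs with the circular RNA Cdr1as, had 1.29 and 1.40 in a region at the start of a lncRNA. In both libraries these lay below the strongest regions of Mir132, Mir124a-3, Mir9-3 and Mir9-2, while in replicate 1 that of Mir129-2 was above those of Mir124a-2 and Mir9-1. Mir128-2, in an intron of the neuronal gene Arpp21, was overlapped by a region of 1.17 and 1.19 that lay 67109 bp from the host's nearest start. Mir138-2, which limits the size of dendritic spines, had 1.00 and 0.785. Mir137, a regulator of synapse and dendrite development, was overlapped by a region of 0.487 and 1.06 at a start of its host Gm26871. If 1 step of the deposited values stands for 1 read, that region rested on 98 reads in replicate 1, with 79.6 to 119 as the exact 95% Poisson interval, and on 119 reads in replicate 2. On the scale of the values, the intervals are 0.395 to 0.594 and 0.879 to 1.27. Such intervals hold counting error and nothing else.

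No member was found at Mir128-1, Mir129-1, Mir138-1, Mir153, Mir218-1, Mir218-2, Mir7-1, Mir7-2, Mir7j and Mir7k. Among these Mir129-1 alone had a peak in the shorter list of 1 library, 0.611 in replicate 1. The nearest shared region lay between 2388 bp (Mir7-2) and 57089 bp (Mir7j) away. Of the families with several genes, miR-9 had a member at 3 of 3 and miR-218 at 0 of 2. The others had one at some copies only: 2 of 3 each for miR-124 and miR-129, 1 of 2 each for miR-128 and miR-138, and 1 of 5 for miR-7. The 5 include Mir7j and Mir7k by the number in their symbols alone. The RefSeq miR-7 strands came from Mir7-1, Mir7-2 and Mir7b, so the place of Mir7j and Mir7k in this family is not shown. A gene without a member is not shown to be closed: the peak of Mir124a-1 in replicate 1 had the same value as that of Mir124a-2 (1.34), and Mir129-1 had peaks in the longer lists of both libraries (0.611 and 0.909). Mir218-1, Mir218-2 and Mir153 lie inside the coding genes Slit2, Slit3 and Ptprn2, and a start site of a primary transcript farther than 2000 bp from the miRNA gene falls outside the distance used.

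**Figure D2:**
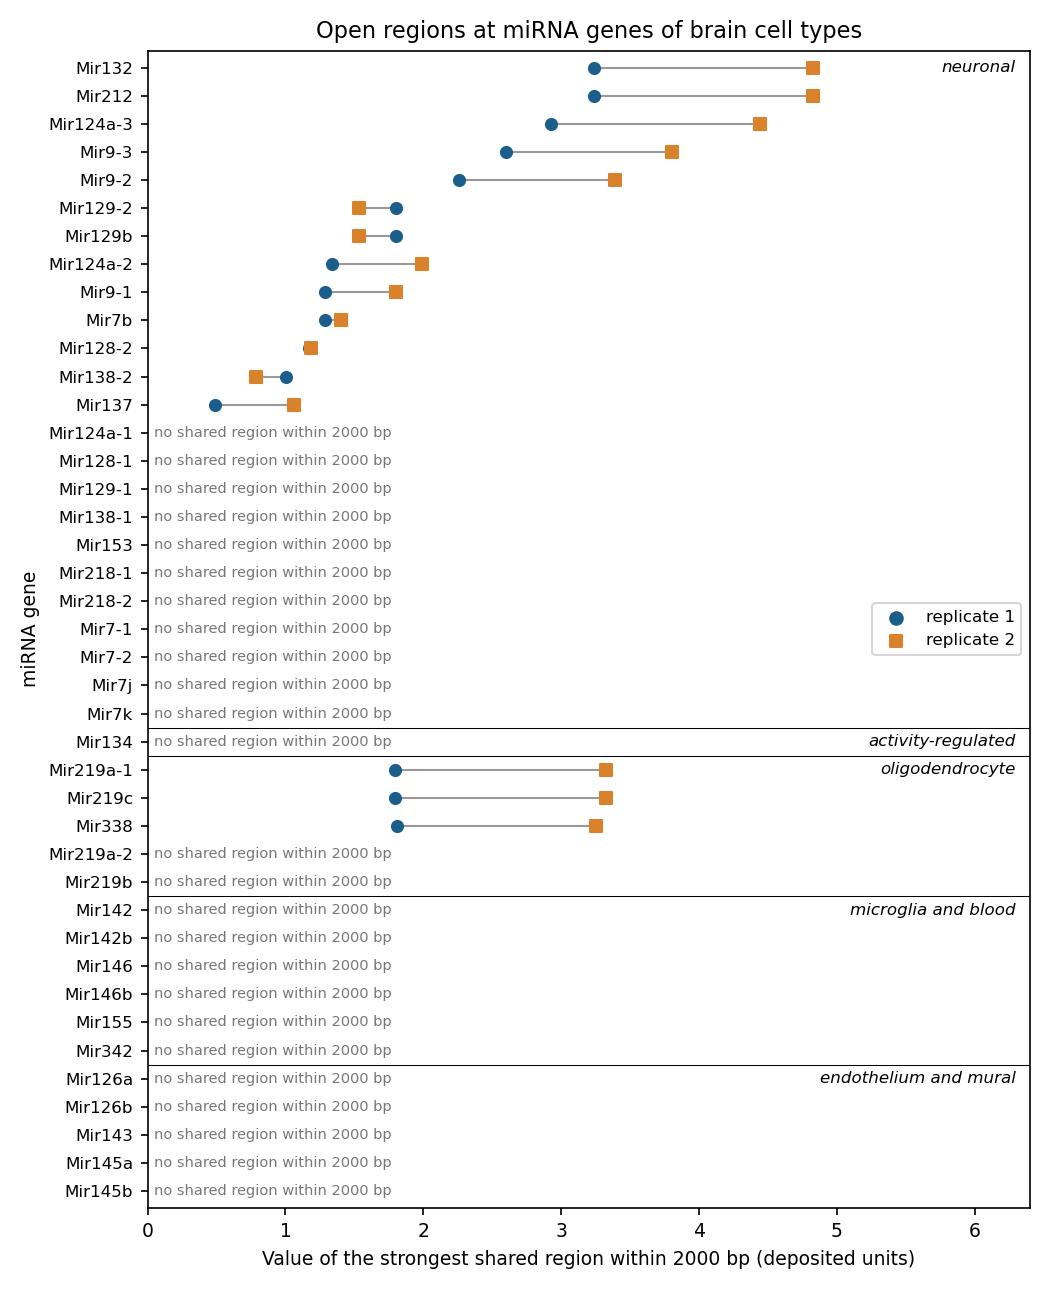
Deposited value of the strongest shared region within 2000 bp of each listed miRNA gene, circles for replicate 1 and squares for replicate 2. Mir132 and Mir212 share the highest region at 3.24 and 4.82 and belong to the activity-regulated list too, and no gene of the microglia and blood or the endothelium and mural list has a shared region.

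Of 5 oligodendrocyte miRNA genes, 3 had a member. Mir338 lies in Aatk, and its region (chr11:120013181-120013420) in an intron of that gene had 1.81 and 3.25. That region lay 1345 bp downstream of Mir338 and 773 bp from a start of Aatk. Mir219a-1 and its antisense copy Mir219c share 2 regions at the start of Ring1, a Polycomb subunit gene, the stronger with 1.79 and 3.33. This open site cannot be assigned to the miRNA over Ring1. Mir219a-2 and Mir219b had a peak in replicate 2 (1.16) and none in the shorter list of replicate 1, whose longer list holds one of 0.532.

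None of the 6 genes of microglia and blood (Mir142, Mir142b, Mir146, Mir146b, Mir155 and Mir342) had a member, and none had a peak in the shorter list of either library. With 6 genes, a count of 0 has an exact 95% upper limit of 45.9%. None of the 5 genes of endothelium and mural cells (Mir126a, Mir126b, Mir143, Mir145a and Mir145b) had one either. Mir143 and Mir145a, known in smooth muscle, had a peak of 3.08 in replicate 2 alone in the shorter lists, and the longer list of replicate 1 held one of 0.855. At coding genes, a promoter region open in both libraries was found for 6 of 7 neuronal, 4 of 4 astrocyte, 3 of 4 oligodendrocyte, 1 of 4 microglial and 1 of 3 endothelial markers, and for 0 of 3 liver and 0 of 3 muscle markers, against 57.8% of all coding genes. The neuronal marker Slc17a7 had none, and of the cerebellar markers 2 of 3 had one, Cbln1 and Pvalb, while Gabra6 had none. At a background of 57.8%, 2 of 3 does not show that cerebellum was present.

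Of 16 genes of let-7 and its partners, broad regulators of differentiation, 6 had a member. Mir125b-2 in Mir99ahg had the highest mean value (1.93 and 3.13), followed by Mir125b-1 in 3110039I08Rik with 2.22 and 2.57. Mirlet7i had 2 regions upstream, of 1.20 and 1.26 in replicate 1 and 1.94 and 1.69 in replicate 2. Mir99b, Mirlet7e and Mir125a share 1 weak region (0.666 and 0.588). Among 27 broadly expressed genes 3 had a member, among them Mir181a-1 and Mir181b-1 with 1 shared region of 0.731 and 1.26. In the list named after the 17-92 cluster and its copies, which promote proliferation, 7 of 10 genes had a member. Of the 7, 6 (Mir17, Mir18, Mir19a, Mir20a, Mir19b-1 and Mir92-1) rest on 1 region upstream of Mir17. It had 0.775 and 1.94 and lay 439 bp from a start of Mir17hg. Mir25, Mir93 and Mir106b, in Mcm7, had no member. Mir92b is in the list by the number in its symbol and lies apart, on chromosome 3. It had 2 regions of its own, the stronger (2.50 and 3.65) within 500 bp of a start of Mtx1 and the other (1.18 and 2.18) away from coding start sites.

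Of the lists for other tissues, muscle (11 genes), liver (1), erythroid (3) and endocrine pancreas (5) had 0 genes with a member. The exact 95% upper limits, 28.5%, 97.5%, 70.8% and 52.2%, all lie above the background of 19.5%. In the longer lists, 4 of the 11 muscle genes had a peak in both libraries, with values between 0.258 and 0.547, and Mir375 of the endocrine pancreas had 0.467 and 1.32, the latter also in the shorter list of replicate 2. The epithelial list had 1 of 6, Mir205, with 0.522 and 0.508. Astrocyte and broad glial genes had 1 of 6, Mir23a, with 1.02 and 2.87. Genes of the 2 large clusters were below the background share. In the Dlk1-Dio3 clusters, an imprinted region with many neuronal miRNAs, 2 of 67 genes (2.99%) had a member. Those were Mir1906-1 in Meg3 (1.81 and 3.22) and Mir3072 in Mirg (strongest region 3.31 and 2.82). In the shorter lists, 2 of the 67 had a peak in replicate 1 and 9 in replicate 2, and 9 had one in the longer lists of both libraries. The other 7, such as Mir1197 and Mir494, share a peak value of 0.794 in replicate 2 and 0.398 in the longer list of replicate 1. In the Sfmbt2 cluster, a tandem array of near-identical hairpins, it was 0 of 119 (upper limit 3.05%). Genes of 1 cluster share their surroundings and are not independent, and the mapping of reads from near-identical copies was not tested.

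**Figure D3:**
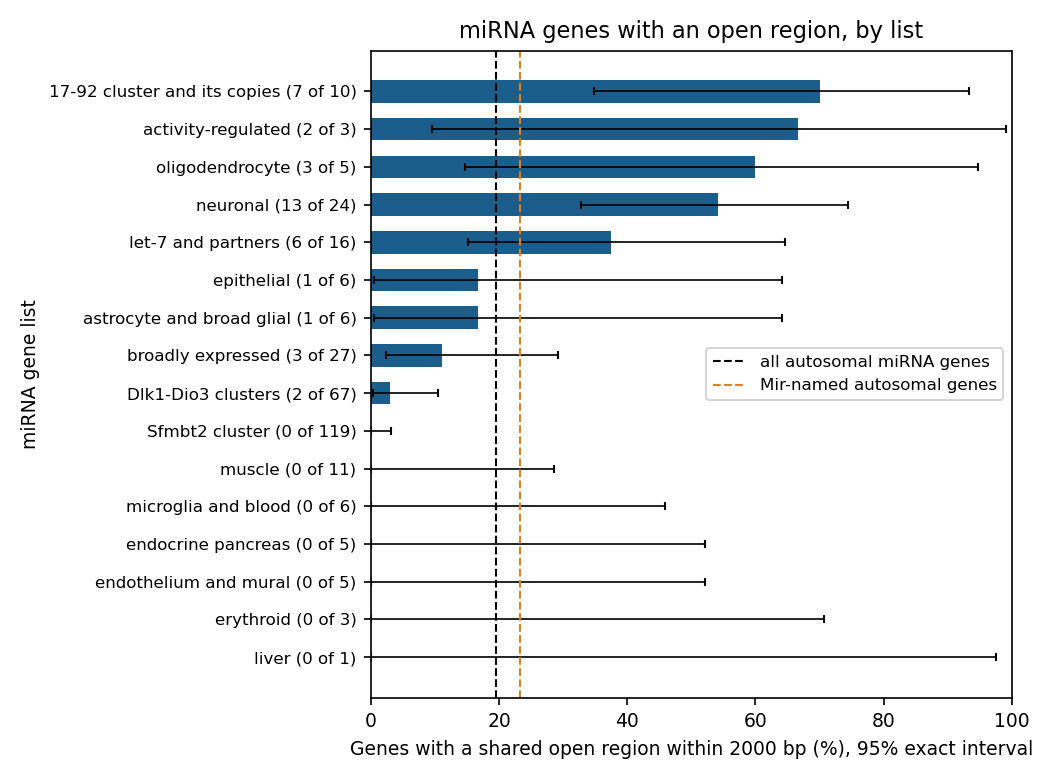
Share of genes in each list with a shared open region within 2000 bp, bars in percent with exact 95% binomial intervals, the count in parentheses, and dashed lines for all autosomal miRNA genes (19.5%) and those with a Mir symbol (23.2%). The neuronal list reaches 13 of 24, and the Sfmbt2 cluster 0 of 119. The intervals count each gene on its own, also where genes share a region.

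Over all members, 50.4% lay within 500 bp of a coding start site (exact 95% interval 46.0 to 54.8%), against 25.5% of the other autosomal shared regions. In 139 of these 258 the start site belonged to the coding gene that holds the miRNA gene on the same strand. Of the 254 away from coding start sites, 26 (10.2%) lay within 500 bp of a lncRNA start, against 2.51% of the other shared regions of that class. Within 2000 bp of miRNA genes there were 69.5 shared regions per Mb, against 25.7 per Mb over the autosomes. Among genes with a Mir symbol, 35.7% of those inside lncRNA genes had a member (45 genes), 31.7% of those antisense to a gene (33 genes), 21.1% of those inside coding genes (136 genes) and 17.8% of those between genes (37 genes). Counting only regions away from coding start sites, the shares inside lncRNA and inside coding genes were 31.0% and 10.7%.

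Members lay at a median of 464.5 bp from the nearest miRNA gene. That gene was overlapped in 108 cases, while 226 members lay upstream of it and 178 downstream. Around genes with a Mir symbol, pairs of a gene and a member near a coding start site fell from 3.04 per 100 genes in the first 500 bp upstream to 1.29 at 1501 to 2000 bp upstream. For members away from such sites the pairs were 2.49 and 2.21 per 100 genes at those distances. Of the 109 miRNA genes overlapped by a member, 69 lay wholly inside it. A footprint touched 67 of the 109 genes in replicate 1, 69 in replicate 2 and 55 in both. Members held a mean of 3.67 and 3.84 footprints in a mean width of 304 bp. Stretches of like length off the miRNA genes were not counted, so these numbers do not show a preference for the hairpins.

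The median value of members near coding start sites was 1.87 in replicate 1 and 2.80 in replicate 2, against 1.56 and 2.34 for other regions of that class, a ratio of 1.20 ± 0.0033 (SD, n = 2). Away from coding start sites it was 0.929 and 1.41 against 0.760 and 1.08, a ratio of 1.26 ± 0.059 (SD, n = 2). The ratio was above 1 in both libraries and both classes. Each SD is between the libraries over the same regions and leaves out the spread among regions. The quartiles overlap widely: away from coding start sites, those of members ran from 0.626 to 1.43 and those of other regions from 0.542 to 1.12 in replicate 1. Members away from coding start sites had more GC (median 53.2% against 48.3%) and more CpG (7 against 4 in 300 bp). They held a median of 3 footprints in each library, against 3 and 2 for other regions. No footprint was found in 13 of them in replicate 1 (5.12%) and 11 in replicate 2 (4.33%). In other regions of that class the shares were 4.19% and 7.33%, so the direction differed between the libraries.

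**Figure D4:**
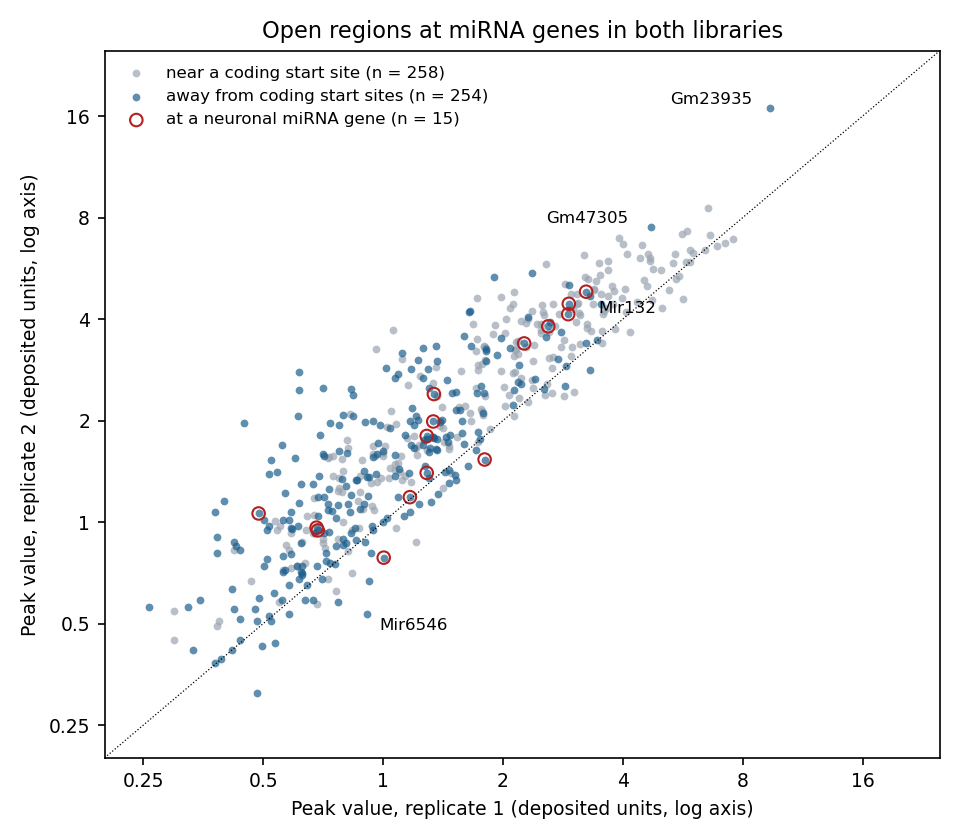
Deposited values of the 512 members in replicate 1 and replicate 2 on log axes, by distance to coding start sites, with the 15 regions at neuronal miRNA genes circled and a dotted line of equal values. Most members lie above the line (88.5%, against 84.5% of other shared regions), with Gm23935 highest in both libraries and Mir6546 below it.

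The highest values away from coding start sites were not at known brain miRNAs. The region over Gm23935, in an intron of Zc3h7a (chr16:11144171-11144320), had 9.38 and 16.9, the highest of all members in both libraries. The next, beside Gm47305 (chr12:69361421-69361640), had 4.70 and 7.51 and overlaps Rn7s2, a RefSeq gene for the 7SL RNA of the signal recognition particle. Mir132 came next by mean log2 value. Mir7000 (3.53 and 4.42), Mir1893 (3.30 and 4.70), Mir1983 (2.94 and 5.06), the downstream region of Mir124a-3, Mir6376 (2.37 and 5.47), the upstream region of Mir124a-3 and Mir1894 (3.44 and 3.47) complete the first 10. Of these 10, the regions of Mir132 and Mir124a-3 are at listed neuronal genes. The region of Mir1983 overlaps the transfer RNA gene n-TItat14.

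Transfer RNA (tRNA) genes, which RNA polymerase III transcribes, underlie several other members. RefSeq places a tRNA gene under 9 of 254 members away from coding start sites (3.54%), against 0.336% of the other 46727 regions. Of the 9, 5 belong to the gene with most members, n-TStga1, which GENCODE M21 types as a miRNA and RefSeq as a serine tRNA. Its strongest region had 1.90 and 5.32. After Mir124a-3, the other genes with 4 members were Mir5126 and Gm47312. Of the 14 members over a tRNA or scRNA gene, 12 had relatively more signal in replicate 2. The median of their log2 differences, centred as below, was -0.51. The other 182 shared regions over tRNA genes gave -0.47, with 168 relatively higher in replicate 2. The cause was not tested.

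The first 5 members near coding start sites were at Mir5627 over the start of Dnajb9 (6.56 and 8.54), Mir3069 near Glrx5 (7.58 and 6.92), Gm25745 near Hsp90b1 (7.24 and 6.73), Mir707 near Akt1s1 (6.63 and 7.12) and Mir1894 near Mrps18b (6.89 and 6.59). These are promoters of widely used genes, such as the endoplasmic reticulum chaperone genes Dnajb9 and Hsp90b1. The 10 strongest regions that overlap a gene with a Mir symbol were those of Mir5627, Mir1945 (start of Gspt1), Mir484 (Marf1), Mir8101 (Hdac5), Mir8102 (Pip4k2b), Mir8112 (Krcc1), Mir1938 (Ifrd1), Mir132, Mir7238 (Ankrd10) and Mir1983. Only Mir132 and Mir1983 of the 10 lie away from a coding start site. Footprints were most numerous in wide regions over coding starts, with 18 and 15 in the 1780 bp region at Mir5130 and Kctd12, followed by those at Mir8104, Gm44325, Mir7240 and Gm44492.

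Replicate differences are log2 of replicate 1 over replicate 2 minus -0.44, the median over all autosomal shared regions. Their median was -0.01 for members near coding start sites and -0.06 for those away, with an SD of 0.38 and 0.52, against 0.36 and 0.55 for other regions of each class. The members relatively highest in replicate 2 were a second region at Gm23935 (0.616 and 2.79, centred difference -1.74), Gm27592 (-1.70), Mir7020 (-1.56), n-TStga1 (-1.39) and Gm47282 (-1.37). Relatively highest in replicate 1 were Mir6546 over the tRNA gene n-TLcag6 (0.910 and 0.535, difference 1.21), Gm22802 (1.07), Mir344h-1 (0.91), Mir7658 (0.91) and Gm24975 (0.85). Among the 15 neuronal regions the differences ran from -0.68 at Mir137 to 0.80 at Mir138-2. With 1 library against 1, none of these differences has a replicate check.

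Other motif shares were read in the same 300 bp windows on both strands. Away from coding start sites, the Sp box GGGCGG was in 25.6% of members and 11.1% of other regions, and the CTCF core AGGNGGC in 35.8% and 27.2%. The E-box CAGNTG was less frequent in members (57.5% and 66.0%), as was the NFI site TTGGCA (18.1% and 24.6%). Only the CRE, the Sp box and the CTCF core were split by CpG, so the other shares do not account for base content. Among windows with 10 or more CpG, the Sp box was in 54.4% of members and 36.7% of other regions, and with fewer than 10 in 5.96% and 7.37%. With 10 or more CpG, the CTCF core was in 47.6% of members (exact interval 37.6 to 57.6%) and 38.4% of other regions. With fewer than 10 it was in 27.8% (20.8 to 35.7%) and 25.5%. So within each CpG group the CTCF share of other regions lay inside the interval of the members. Near coding start sites the Sp box was in 70.2% and 63.1%, the CCAAT box in 41.5% and 33.8%, and the CRE in 3.88% and 3.24%. AP-1 (TGANTCA), NRF1 (GCGCATGC) and ETS (CCGGAAG) gave 16.1% and 19%, 1.57% and 0.969%, and 3.15% and 2.01% away from coding start sites. The MEF2 motif TATTTATA was in 0.787% and 2.23%. The RE1 element, which the neuronal repressor REST binds, was searched as TTCAGCACC and GGACAGCGC. The left sequence was in 0 of 254 members and 0.394% of other regions, and the right one in 2 (0.787%) and 0.141%, of which 1 is the weak downstream region of Mir124a-3. Motifs can overlap each other in these counts.

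**Figure D5:**
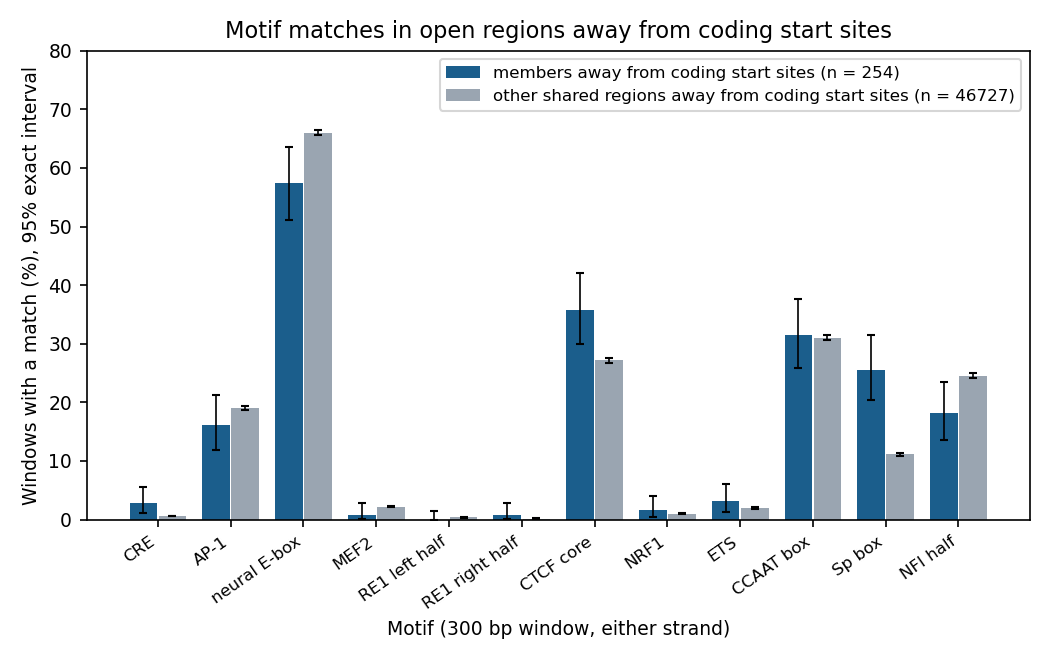
Share of 300 bp windows with each motif, in percent with exact 95% binomial intervals, for the 254 members and the 46727 other shared regions away from coding start sites. The CRE is in 2.76% of members and 0.595% of other regions, and the Sp box in 25.6% and 11.1%.

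The distance of 2000 bp sets who is a member. Just inside it lay regions at Gm27805 (1972 bp, 1.44 and 1.78), Mir677 (1966 bp, 5.36 and 5.88) and Mir125b-1 (1955 bp, 1.47 and 1.43). Just outside lay those of Mir1931 (2005 bp, 1.60 and 1.44), Mirlet7b (2018 bp, 1.68 and 3.21) and Gm22118 (2021 bp, 1.81 and 2.79).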

How the data were processed

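DNase-seq of 2 replicates of 1 group was used. The authors deposited, per library and on mm10, 2 peak lists with a signal for each peak, a list of footprints at a p-value threshold of 0.01 and intervals with a false discovery rate (q-value) below 0.05. No label or file header names the aligner, the caller or the normalization of the signal. In the deposited signal all values were whole steps (tolerance 0.05), so that, if 1 step is 1 read scaled per M, the depth was 201 M and 112 M reads (M for mega).

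The shorter list of each library was used, peaks that overlapped or touched were joined, and a region with a peak of each library was shared. Genes came from GENCODE M21, other small RNA genes and sequences from RefSeq (GRCm38.p6), and 0 peaks lay beyond a chromosome end. Python 3.11.15, pandas 2.3.3, scipy 1.17.1 and pysam 0.24.0 were used, and joining and distances were tested on simulated data. Shares carry exact (Clopper-Pearson) 95% intervals. No test was possible with 1 group. Named regions were those of the listed brain miRNA genes, the 10 strongest away from and 5 strongest near coding start sites, the 5 most different between libraries in each direction, those with most footprints or most regions per gene, and, of regions over Mir genes, the 10 strongest. Genes of other lists were named as examples. A marker gene of the tissue check is not reported here. The members and lists were chosen with earlier results of these data known. The split by CpG was chosen after seeing the data.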

Additional observations from a re-analysis of the deposited data

How the results depend on the processing

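The 5 summary results were recomputed under 13 other settings each, 11 planned and 2 chosen after seeing the data. The number of members was 749 with the longer lists, 374 with the stronger 50% of peaks, 267 at 500 bp, 991 at 5000 bp, 108 with overlap only and 316 for Mir symbols only, and 651 to 668 without replicate 1 or 2 (regions of a single library). The share near coding start sites was 42.6% with the longer lists, 59.6% with the stronger 50% of peaks, 62.9% at 500 bp, 44.2% at 5000 bp, 62.0% with overlap, 46.5% for Mir symbols, 40.8% and 63.3% for windows of 100 and 2000 bp around start sites, and 45.5 to 47.6% without a replicate. The share of miRNA genes with a member was, in the same order of settings, 26%, 14.9%, 10.5%, 34.7%, 5.31% and 23.2%, then 19.3% where the strongest peaks overlap by 50% and 19.3% without regions over tRNA, scRNA or rRNA genes (chosen after seeing the data), and 22.1 to 22.3% without a replicate. Neuronal families with a member were 4 with overlap only and 7 or 9 otherwise. The value ratio away from coding start sites stayed above 1 in all 13 settings, at 1.15 with the stronger 50% of peaks, 1.20 at 5000 bp, 1.20 with overlap and 1.21 to 1.26 without a replicate. Joining peaks only at 1 shared base, chosen after seeing the data, gave 516 members. With 200 bp windows, 15 of 24 motif shares stayed within the interval of the 300 bp share, among them both CRE shares. Each 200 bp window lies inside the 300 bp one, so a share could only fall or stay equal. The wide intervals of rare motifs such as the CRE hold such a fall easily, so this is no separate support. No paired analysis was possible because there was 1 group. The number of libraries, 2, limits all values, and depth is inferred only.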
